A study of Mus musculus with 9 samples.

Results

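Cdk5rap2 and 9 genes that work with it in building centrosomes and spindle poles were followed in mouse B cells. In these cells Yy1, the gene for the transcription factor YY1, had been deleted, and its RNA was measured here, not its protein. The 10 genes are Cdk5rap2, its paralogue Pde4dip, the scaffold genes Pcnt, Akap9 and Cep192, the centriole duplication genes Cep152, Cep63, Plk4 and Cenpj, and the spindle pole gene Aspm. They were chosen by name as centrosome and microcephaly genes around Cdk5rap2, and Cdk5rap2 itself was chosen by its measured fall in the same comparison of tatcre with mock cells that is described here. The differences of all 10 genes are therefore given as a description, without p-values. All 10 were found among the 48795 gene IDs of the count files, and all 10 passed the filter on low counts that left 15546 genes.

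The cells were splenic follicular B cells, selected on CD23, of C57BL/6 mice in which both copies of Yy1 carry loxP sites (yy1 f/f). The tatcre group (3 RNA-seq libraries) had been treated with TAT-CRE, a Cre recombinase that enters cells, before culture with the B cell activators LPS and IL-4, under which these cells divide. The mock group (3 RNA-seq libraries) carried the same floxed gene and had the same culture after a mock treatment. The text on the series gives 72 hours of culture with 10% serum, and the text on the samples gives 48 hours with 20% serum and lists TAT-CRE for every sample, mock included; groups follow the titles. The cells came from the spleens of 3 mice, but which library came from which mouse is not stated, so the spread between libraries may be partly technical. Exposure to the recombinase and loss of Yy1 cannot be told apart, since every tatcre library had both.

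The centrosome is a pair of centrioles surrounded by a protein matrix that nucleates microtubules. CDK5RAP2 sits in this matrix, is anchored by pericentrin, and recruits and activates gamma-tubulin ring complexes, the templates of new microtubules. It also helps to hold centrioles together and the spindle poles focused. Loss of the human gene causes primary microcephaly, and a Cdk5rap2 mutation in mice causes Hertwig's anaemia, a defect of dividing blood progenitors. Cells copy their centrioles once in each division cycle, in a pathway started by the kinase PLK4, so these genes are in use in B cells driven to proliferate.

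The start of Cdk5rap2 is shown because it carries several copies of the letters that YY1 is known to bind. The sequence below is the RefSeq promoter window on GRCm38.p6, chr4:70410386-70410685, minus strand, from 250 bases before to 50 bases after the annotated start site. Capitals mark matches to the 8-letter YY1 motif AANATGGC, which reads GCCATNTT on the other strand.

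Cdk5rap2: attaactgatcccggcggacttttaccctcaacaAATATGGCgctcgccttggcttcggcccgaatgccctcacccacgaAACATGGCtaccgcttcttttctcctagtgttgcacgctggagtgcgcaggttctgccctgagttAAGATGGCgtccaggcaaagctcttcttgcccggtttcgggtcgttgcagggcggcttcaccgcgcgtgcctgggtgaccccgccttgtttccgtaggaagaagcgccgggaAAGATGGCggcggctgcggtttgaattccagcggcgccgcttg

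The window holds 4 matches, all on the strand of the gene. Their first bases lie 216, 170 and 105 bases before the start site and 7 bases after it. The last of them continues as the longer YY1 consensus, AAGATGGC followed directly by GG. A promoter window was matched for 9 of the 10 genes (10 windows, since Pde4dip has 2); Cep192 was not matched. The windows of Akap9, Aspm, Cep63 and Cenpj lie within the RefSeq span of their gene, so the outer end of these genes was not searched. Among the 9 matched genes only Pde4dip and Plk4 also had a match, 1 each. That of Pde4dip starts 9 bases after the start site on the opposite strand, in a window at chr3:97767965-97768264, and that of Plk4 starts 241 bases before the start site, in a window at chr3:40799701-40800000. The stretches around them are given for comparison, with the match in capitals.

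Pde4dip: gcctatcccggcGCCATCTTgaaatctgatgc
Plk4: taaaaaaggAAAATGGCacaacggtgtac

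Over all 32851 promoter windows of the table, 6.05% held at least 1 match to the 8-letter motif on either strand. At least 2 matches were found in 0.326% of windows and at least 3 in 0.0244%, which is 8 windows, and the Cdk5rap2 window was the 1 window with 4. The longer motif stood in 0.852% of windows. Over the 12757 windows of tested genes the shares were higher, at 8.37% with at least 1 match, 0.596% with at least 2, 0.0627% with at least 3 and 1.98% with the longer motif. These are counts of letters, with no measurement of binding at these sites. The YY1 peak lists of the series were not used here for the 10 genes, because the build of their coordinates was not settled. Some peaks lie past the last annotated gene of a GRCm38 chromosome. This holds on 3 chromosomes in the tatcre list (2069 peaks), 2 in the mock list (999 peaks) and 7 in the naive list (2349 peaks). With 1 ChIP library each, the peak numbers were not compared. A chromosome can extend past its last annotated gene, so such peaks cannot decide the build. The submitters' processing notes name mm10.

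**Figure D1:**
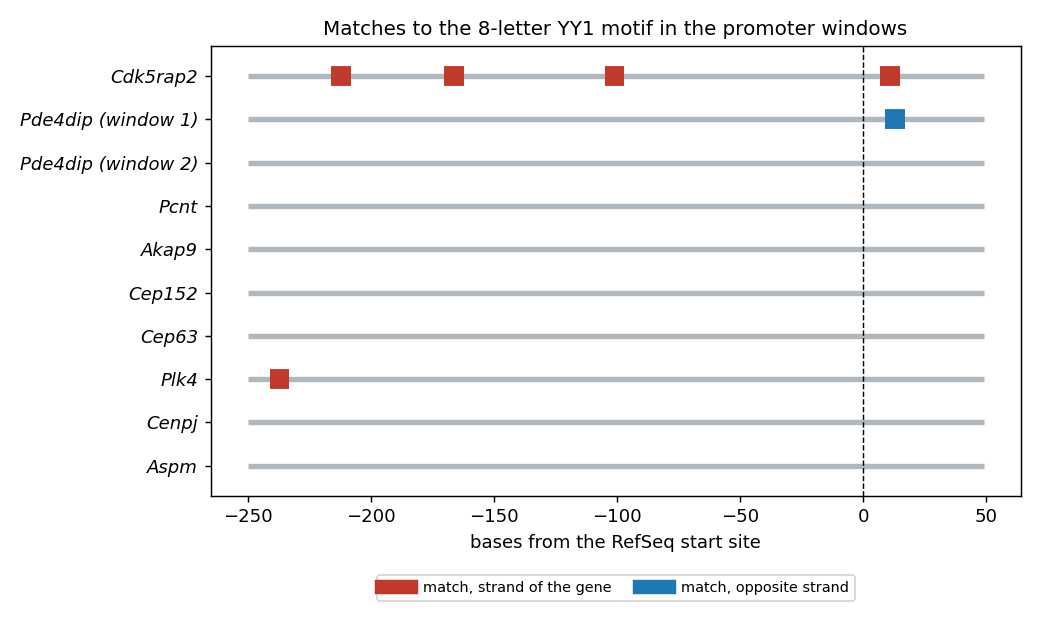
Matches to the 8-letter YY1 motif in the RefSeq promoter windows of 9 genes, by distance in bases from the start site (dashed line); grey bars are the windows, red blocks matches on the strand of the gene and blue blocks matches on the opposite strand. Cdk5rap2 has 4 matches, Pde4dip and Plk4 have 1 each, and the other 6 genes have none.

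The libraries held 22729187 to 28230727 gene counts. In mock replicate 3, 20420 genes had a count, fewer than the 21875 to 23197 of the other libraries. Yy1, the deleted gene (chromosome 12, GRCm38 positions 108792945 to 108820148), had 24, 36 and 50 counts in tatcre libraries 1 to 3 and 2655, 3018 and 2542 counts in mock libraries 1 to 3. Its level was 1.5 ± 0.51 CPM in tatcre and 107 ± 5.89 CPM in mock cells (SD, n = 3 each). CPM, counts per 1000000 counts of a library after TMM scaling, is the unit of level throughout, and a gene is called lower or higher where edgeR's quasi-likelihood test gave a Benjamini-Hochberg adjusted p under 0.05 over all genes tested. Of 10 B cell markers all were tested, 5 were called lower and none higher, and their summed level was 6570 to 7310 CPM in tatcre and 8210 to 8570 CPM in mock libraries. Defining markers of T and myeloid cells were near 0: 5 of 8 T cell and 6 of 9 myeloid markers had at most 10 counts in any library. The summed level was 9.46 to 13.5 CPM in tatcre and 14.8 to 20.8 CPM in mock libraries for T cell markers, nearly all of it Lck. For myeloid markers it was 12.7 to 15.8 CPM in tatcre and 22.5 to 28.1 CPM in mock libraries, nearly all of it Cd68, while Cd14, S100a8, S100a9 and Fcgr1 were at 0 in every library. NK and erythroid markers summed to at most 0.752 and 0.543 CPM in tatcre and 0.81 and 0.511 CPM in mock libraries. Plasma cell markers, led by Xbp1, summed to 307 to 358 CPM in tatcre and 353 to 408 CPM in mock libraries. Plasmacytoid dendritic cell markers, led by Tcf4, summed to 185 to 198 CPM in tatcre and 238 to 284 CPM in mock libraries, with Siglech at most 0.809 CPM; Tcf4 was called lower and Bst2 higher, at 31.1 ± 3.31 CPM in tatcre and 18.7 ± 1.30 CPM in mock cells (SD, n = 3 each). Stromal markers, led by Pecam1, summed to 37.5 to 40.6 CPM in tatcre and 38.6 to 49.4 CPM in mock libraries; of these Pecam1 was called lower, at 33.5 ± 0.688 CPM in tatcre and 41.4 ± 4.24 CPM in mock cells, Col1a2 was not called, and Col1a1 was called higher, at 1.89 ± 0.608 CPM in tatcre and 0.418 ± 0.317 CPM in mock cells (SD, n = 3 each), as was Vcam1. The part of other cells in the differences below was not tested.

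Cdk5rap2 RNA was nearly absent from tatcre cells. Cdk5rap2 (ENSMUSG00000039298, chromosome 4, 70216855 to 70410435) had 67, 41 and 41 counts in tatcre libraries 1 to 3, against 1422, 1468 and 1247 counts in mock libraries 1 to 3. In CPM these are 2.75, 1.71 and 1.64 in tatcre and 53.7, 54.4 and 53.1 in mock libraries. The groups lie far apart and the mock libraries are almost equal. The mean was 2.03 ± 0.618 CPM in tatcre and 53.7 ± 0.647 CPM in mock cells (SD, n = 3 each), a log2 fold change of -4.72 (SE 0.16), or 3.79% of the mock level. In bulk RNA, fewer cells with the transcript and less transcript per cell cannot be told apart. Among all 15546 genes tested, 7 had a lower log2 fold change.

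The counts of remaining Cdk5rap2 and Yy1 RNA did not stand in the same order across the 3 tatcre libraries. Tatcre replicate 1 had the lowest Yy1 count (24, 95% exact Poisson interval 15.4 to 35.7) and the highest Cdk5rap2 count (67, 51.9 to 85.1). Tatcre replicate 3 had the highest Yy1 count (50, 37.1 to 65.9) and shared the lowest Cdk5rap2 count (41, 29.4 to 55.6). The Cdk5rap2 intervals of these libraries overlap, and intervals cover counting error only. With 3 libraries no relation can be tested.

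The tested genes next to Cdk5rap2 on chromosome 4 showed no such fall. Megf9 is the nearest tested gene on the start side of Cdk5rap2, and the near end of its span lies 21.5 kb away. It had 10.3 ± 1.35 CPM in tatcre and 8.01 ± 0.945 CPM in mock cells (SD, n = 3 each). Its log2 fold change was 0.37 (SE 0.15, edgeR adjusted p = 0.092). On the other side the nearest tested gene, Gm11225, lies 168 kb away and had 3.28 ± 0.604 CPM in tatcre and 2.75 ± 0.91 CPM in mock cells (log2 fold change 0.25, SE 0.29, edgeR adjusted p = 0.56). Neither was called. The pseudogene Ywhaq-ps3 lies within the span of Cdk5rap2, and 6 of the 10 genes overlap another RefSeq gene. The sources used here do not give the strand setting of the counting, so reads of overlapping or antisense genes may be included.

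**Figure D2:**
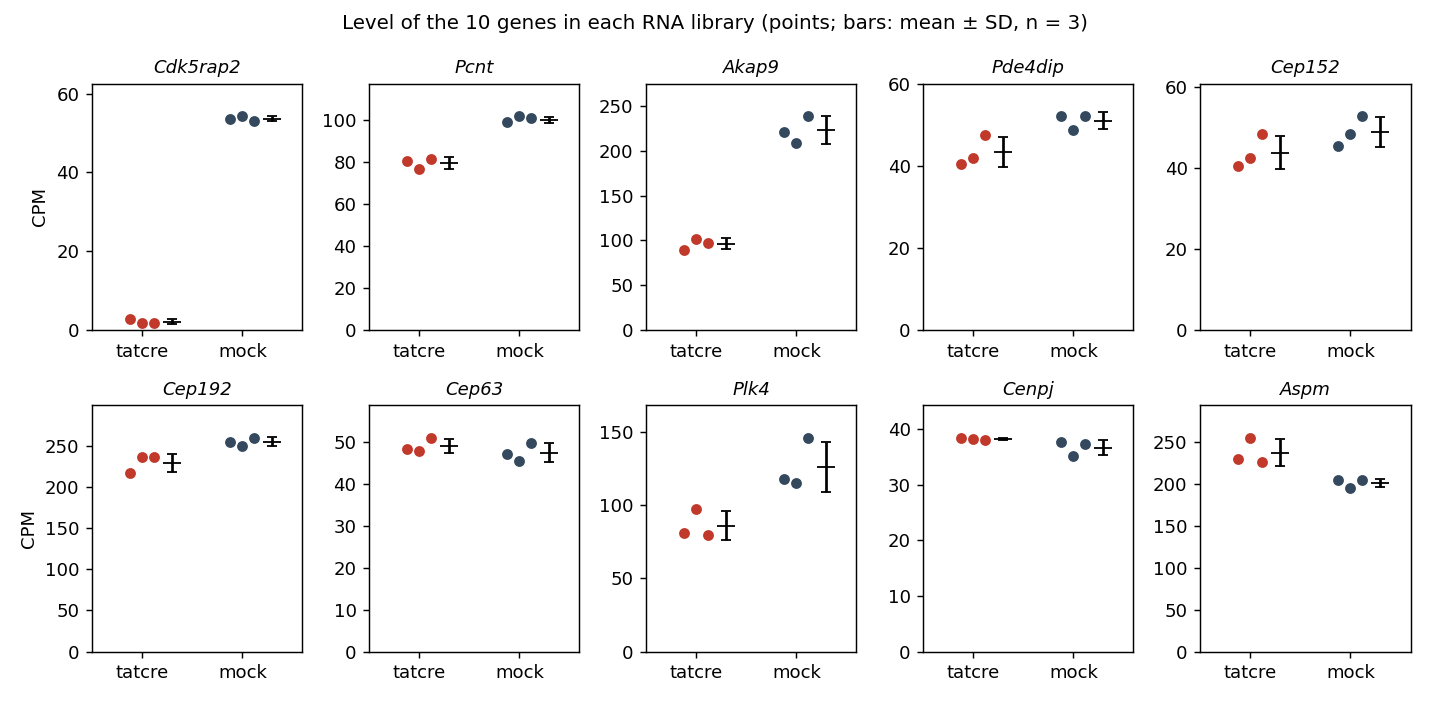
Level in CPM of the 10 genes in each RNA library, tatcre (red) left of mock (dark), with the mean and SD of 3 libraries beside the points. Cdk5rap2 stands at 1.64 to 2.75 CPM in tatcre and 53.1 to 54.4 CPM in mock libraries; of the other 9 genes, Akap9 is the lowest relative to mock (43.1%).

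Of the 10 genes 4 were called lower (Cdk5rap2, Akap9, Plk4 and Pcnt), 1 higher (Aspm) and 5 were not called. Over all genes tested, 16.3% were called lower and 10.8% higher, so that 60.2% of calls were falls; with upper-quartile scaling falls were 48.5% of calls and with library size alone 42.0%. The median log2 fold change was -0.20 over the 10 genes and 0.02 over all genes tested. Tatcre and mock values were fully separate for 6 genes that were lower and 2 that were higher in tatcre cells, where 23.3% of all tested genes did not overlap and were lower and 20.6% did not overlap and were higher. Because the comparison was used in choosing Cdk5rap2, nothing is read from these shares.

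The paralogue Pde4dip was not higher in tatcre cells. Pde4dip encodes myomegalin, which is related to CDK5RAP2 in sequence and supports microtubule growth at the Golgi and the centrosome. It had 40.4, 42.0 and 47.4 CPM in tatcre libraries 1 to 3, against 52.2, 48.7 and 52.2 CPM in mock libraries 1 to 3. Every tatcre library was below every mock library, by a narrow margin. The means were 43.3 ± 3.68 CPM in tatcre and 51.0 ± 2.06 CPM in mock cells (SD, n = 3 each), with a log2 fold change of -0.24 (SE 0.09), and the gene was not called; without tatcre replicate 3 it was called lower, at -0.32. Of its 2 promoter windows, the 1 at chr3:97888658-97888957, at the outer end of the gene, holds no match to the 8-letter motif. The window at chr3:97767965-97768264, which lies within the gene's span (97689828 to 97888707), holds the 1 match shown above. The Cdk5rap2 window holds 4.

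Akap9 had the next largest difference. Akap9 encodes AKAP450, a large scaffold that anchors protein kinase A and myomegalin at the Golgi and the centrosome. Its level was 89.3, 101 and 97.5 CPM in tatcre libraries 1 to 3 and 221, 209 and 239 CPM in mock libraries 1 to 3. No tatcre library reached even the lowest mock library. It fell to 96.0 ± 6.10 CPM in tatcre cells, against 223 ± 15.3 CPM in mock cells (SD, n = 3 each; log2 fold change -1.21, SE 0.08), or 43.1% of the mock level. Its promoter window, which lies within the gene's span, holds no match to either motif.

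The scaffolds that anchor CDK5RAP2 and build the mitotic matrix differed less. Pcnt encodes pericentrin, the anchor of CDK5RAP2 in the matrix, and had 80.6, 76.5 and 81.4 CPM in tatcre libraries 1 to 3 and 98.8, 102 and 101 CPM in mock libraries 1 to 3. The groups were separate and each was tight, and Pcnt was called lower (log2 fold change -0.34, SE 0.07). Cep192, which encodes the scaffold that brings PLK4, Aurora A and PLK1 to the centrosome, had 217, 236 and 236 CPM in tatcre libraries 1 to 3 and 255, 250 and 260 CPM in mock libraries 1 to 3. Its groups did not overlap either, but the difference was small (log2 fold change -0.15, SE 0.07) and it was not called.

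Among the centriole duplication genes Plk4 differed and its partners differed little. Plk4, the kinase whose activity starts a new centriole, had 80.8, 97.5 and 79.4 CPM in tatcre libraries 1 to 3, against 118, 115 and 146 CPM in mock libraries 1 to 3. Both groups were spread more widely than those of the scaffolds, and mock replicate 3 was highest. Plk4 was called lower, at 85.9 ± 10.1 CPM in tatcre and 126 ± 17.1 CPM in mock cells (SD, n = 3 each; log2 fold change -0.55, SE 0.11). Cep152, which encodes the receptor that docks PLK4 on the parent centriole, had 40.5, 42.3 and 48.2 CPM in tatcre libraries 1 to 3 and 45.3, 48.2 and 52.8 CPM in mock libraries 1 to 3. These values overlap, and Cep152 was not called (log2 fold change -0.16, SE 0.10). Cep63 encodes the partner of CEP152 on the centriole wall. It had 48.4, 47.8 and 51.1 CPM in tatcre libraries 1 to 3 and 47.2, 45.4 and 49.9 CPM in mock libraries 1 to 3, which also overlap, with a log2 fold change of 0.05 (SE 0.08). Its span overlaps that of Anapc13. Cenpj, also known as CPAP, sets the length of new centrioles. It had 38.5, 38.3 and 38.1 CPM in tatcre libraries 1 to 3 and 37.7, 35.1 and 37.4 CPM in mock libraries 1 to 3, and was not called (log2 fold change 0.06, SE 0.08). Its groups did not overlap, although their means were only 38.3 ± 0.185 CPM in tatcre and 36.7 ± 1.39 CPM in mock cells (SD, n = 3 each).

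Aspm, which encodes a spindle pole protein that binds microtubule minus ends and is the most frequently mutated human microcephaly gene, was the 1 gene of the 10 called higher. It had 230, 255 and 226 CPM in tatcre libraries 1 to 3, against 204, 195 and 204 CPM in mock libraries 1 to 3. All tatcre libraries were above all mock libraries, and tatcre replicate 2 was highest. The means were 237 ± 16 CPM in tatcre and 201 ± 4.89 CPM in mock cells (SD, n = 3 each; log2 fold change 0.24, SE 0.08). This call was lost whichever of the 6 libraries was left out, at log2 fold changes of 0.18 to 0.27.

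**Figure D3:**
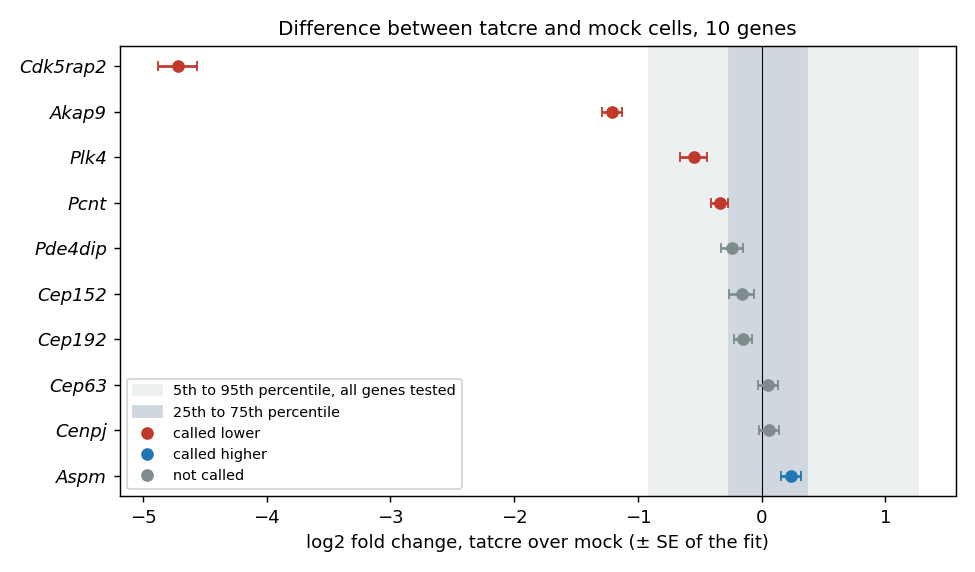
Log2 fold change of tatcre over mock for the 10 genes, with the SE of the fit, over grey bands for the 5th to 95th and 25th to 75th percentile of all genes tested; red is called lower, blue called higher and grey not called. Cdk5rap2 (-4.72) and Akap9 (-1.21) lie below the 5th percentile of -0.91, and Plk4 and Pcnt lie between it and the 25th percentile of -0.26.

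The genes whose profile over the 6 libraries was most like that of Cdk5rap2 had other roles. Likeness was measured as the Euclidean distance between centred log2 CPM values (0.1 CPM added), among named genes whose mean log2 CPM reached 2 or more. The 5 nearest were Dhdh, a dihydrodiol dehydrogenase (distance 1.06), Dtx3, a deltex-type ubiquitin ligase (1.52), Prepl, a prolyl endopeptidase-like hydrolase (1.63), Taf9b, a TFIID and SAGA subunit (1.85), and Hsd17b10, a mitochondrial dehydrogenase (1.90). None of the other 9 centrosome genes came closer than Akap9, at a distance of 4.32. Dhdh had 1.43 ± 0.241 CPM in tatcre and 28.9 ± 3.67 CPM in mock cells, and Taf9b had 0.704 ± 0.433 CPM in tatcre and 38.6 ± 3.21 CPM in mock cells (SD, n = 3 each). Since the choice favours genes that fell as far as Cdk5rap2, these values are a description.

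The promoters of these genes were set beside that of Cdk5rap2 for the same letters. Windows were matched for Prepl, Taf9b and Hsd17b10; Dhdh and Dtx3 were not matched. Each of the 3 held at least 1 match to the 8-letter motif, as did 8.37% of the windows of all tested genes. The 3 were picked by their fall in these data, so nothing is read from this. All matches on the strand of the gene are given with the match in capitals, 1 stretch each, for Cdk5rap2 and for GRCm38.p6 windows at chr17:85090225-85090524 (minus strand, match 54 bases before the start site), chrX:106221109-106221408 (minus strand, 16 bases after it), chrX:106219793-106220092 (minus strand, 221 bases before the start site of a further Taf9b window) and chrX:152001646-152001945 (plus strand, 9 bases after it). The 4 of Cdk5rap2 come first, named by the distance in bases from the start site. Prepl also has a match on the opposite strand, 243 bases before the start site.

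Cdk5rap2 at -216: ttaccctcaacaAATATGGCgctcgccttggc
Cdk5rap2 at -170: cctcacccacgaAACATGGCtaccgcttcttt
Cdk5rap2 at -105: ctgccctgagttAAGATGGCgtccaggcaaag
Cdk5rap2 at 7: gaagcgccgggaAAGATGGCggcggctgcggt
Prepl: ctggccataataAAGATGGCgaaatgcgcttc
Taf9b: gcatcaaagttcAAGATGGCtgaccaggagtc
Taf9b further window: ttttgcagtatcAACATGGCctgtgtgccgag
Hsd17b10: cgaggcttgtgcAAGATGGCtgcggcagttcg

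The 8 stretches differ at the N of the motif. The form AAGATGGC stands in the Cdk5rap2 matches at -105 and 7 and in those of Prepl, Hsd17b10 and the first Taf9b window. The Cdk5rap2 match at -170 and the further Taf9b window have AACATGGC, and the Cdk5rap2 match at -216 has AATATGGC. Across all tested genes with a promoter window, of 1019 with at least 1 match to the 8-letter motif 31.1% were called lower and 11.8% higher, while of 8988 without a match 17.3% were called lower and 12.2% higher. This split was made after the Cdk5rap2 window had been seen, and its difference was not tested.

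**Figure D4:**
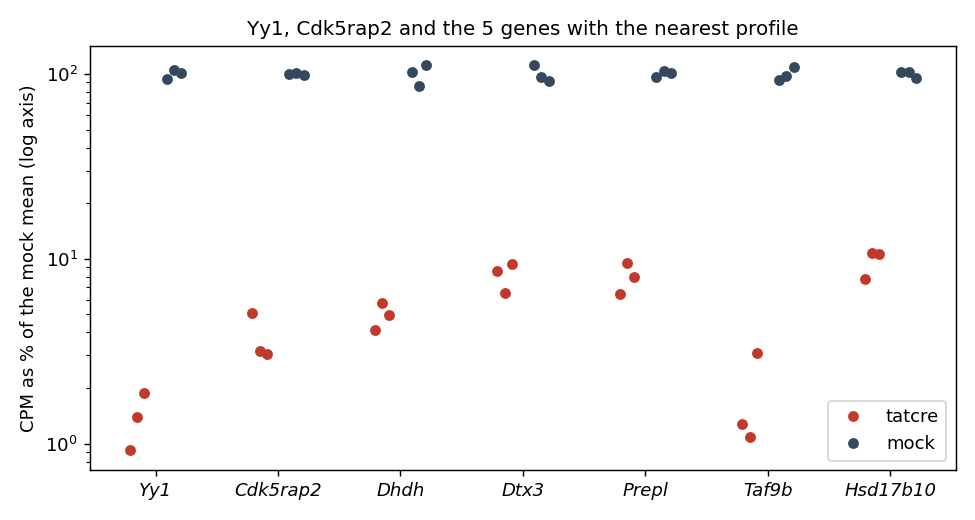
CPM of Yy1, Cdk5rap2 and the 5 genes with the nearest profile in each RNA library, as a percentage of the gene's mock mean on a log axis, tatcre (red) left of mock (dark). All tatcre points of these genes lie far below the mock points; Taf9b spreads most among the tatcre libraries, with 1.20 CPM in tatcre replicate 3 against 0.492 and 0.418 CPM in tatcre replicates 1 and 2.

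The wider set of centrosome and cell division genes moved in both directions. Of 161 tested genes on 8 lists, each counted once, 33 were called lower and 34 higher, where 16.3% of all tested genes were called lower and 10.8% higher. Their median log2 fold change was 0.03, against 0.02 over all genes tested. The same shares over all tested genes stand behind the count of each list below. Leaving out tatcre replicate 1 lowered the number called to 41 of them. None of these genes came near the difference of Cdk5rap2: log2 fold changes ran from -2.25 to 1.82, the last in a gene that was not called. With library size alone 20 were called lower and 53 higher, and with upper-quartile scaling 22 lower and 47 higher.

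CDK5RAP2 acts on gamma-tubulin ring complexes, and of 19 genes for these and for augmin, the complex that branches microtubules in the spindle, 4 were called lower, 6 higher and 9 were not called. The 3 with the smallest adjusted p were augmin subunit genes, and all were lower. Haus7 fell to 9.05 ± 1.57 CPM in tatcre cells, against 26.7 ± 1.86 CPM in mock cells (log2 fold change -1.56, SE 0.13, edgeR adjusted p = 2e-05). Haus1 had 30.8 ± 4.51 CPM in tatcre and 52.8 ± 5.90 CPM in mock cells (edgeR adjusted p = 0.00094), and Haus2 had 23.7 ± 1.84 CPM in tatcre and 33.1 ± 2.94 CPM in mock cells (edgeR adjusted p = 0.0058). Nedd1, the adaptor that targets the ring complex to spindles and centrosomes, was called higher (log2 fold change 0.40, SE 0.09, edgeR adjusted p = 0.0063). Subunits Haus3, Haus4 and Haus6 were also called higher, with log2 fold changes of 0.36, 0.31 and 0.31, and each of these calls was lost without some libraries: mock 1, mock 2 or tatcre 1 for Haus3, mock 2, mock 3, tatcre 1 or tatcre 3 for Haus4, and mock 1, mock 2, tatcre 2 or tatcre 3 for Haus6. The number called higher was 2 without mock replicate 2 and 3 without tatcre replicate 3.

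Of 32 genes of the pericentriolar matrix, satellites and centriole linker, 11 were called higher, 3 lower and 18 were not called. Fbf1, a distal appendage gene, rose to 41.1 ± 7.13 CPM in tatcre cells, against 21.1 ± 0.979 CPM in mock cells (log2 fold change 0.96, SE 0.12, edgeR adjusted p = 0.00029). The appendage genes Sclt1 and Cep164 were called higher as well, with log2 fold changes of 0.68 and 0.57, while the appendage genes Cep83 and Cep89 were not called (0.06 and 0.18). Cep250 and Cntln, genes of the linker between centrioles, were called higher at 0.41 and 0.68. The linker genes Crocc, Cep68 and Lrrc45 were not called, with log2 fold changes of 0.37, -0.15 and -0.19. The largest fall of the list was that of Bbs4, a BBSome subunit carried by satellites, with 1.03 ± 0.386 CPM in tatcre and 4.94 ± 0.795 CPM in mock cells (log2 fold change -2.25, SE 0.31, edgeR adjusted p = 0.0004). Cep350, a centriole gene, fell to 81.3 ± 3.80 CPM in tatcre cells, against 130 ± 3.13 CPM in mock cells (edgeR adjusted p = 0.00011), and the satellite scaffold gene Pcm1 fell to 146 ± 17.0 CPM in tatcre cells, against 211 ± 38.1 CPM in mock cells, a call lost without tatcre replicate 1. The number called higher was 9 to 11 in the 12 other settings tried.

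Of 26 other genes of centriole duplication and elongation, 7 were called lower, 5 higher and 14 were not called. Wdr62, which encodes a spindle pole protein and is also a microcephaly gene, fell to 14.8 ± 0.474 CPM in tatcre cells, against 26.1 ± 1.75 CPM in mock cells (log2 fold change -0.81, SE 0.10, edgeR adjusted p = 0.00021). Cep135, a gene of the centriolar cartwheel, fell by 0.38 on the log2 scale (edgeR adjusted p = 0.0059), and Cep120, needed for centriole elongation, was called higher at 0.32 (edgeR adjusted p = 0.009; lost without tatcre replicate 1). The cartwheel genes Sass6 and Stil were called in opposite directions, with log2 fold changes of -0.32 and 0.33. The call of Sass6 was lost without mock 2, mock 3, tatcre 1 or tatcre 3 and with upper-quartile scaling or library size alone, and that of Stil without mock 1, mock 2, tatcre 1 or tatcre 2. On the whole list, the lower calls numbered 4 without mock 1, mock 2, mock 3 or tatcre 3 and 3 without tatcre 1. The higher calls numbered 3 without mock 1 or tatcre 2 and 2 without mock 2 or mock 3, and all 5 were lost without tatcre 1. With library size alone 2 were lower and 8 higher, and with upper-quartile scaling 3 were lower and 8 higher.

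Of 24 other microcephaly genes tested, some of them also on the centriole list, 6 were called lower, 4 higher and 14 were not called. Lmnb2, the lamin B2 gene, fell to 11.4 ± 2.71 CPM in tatcre cells, against 27.4 ± 1.31 CPM in mock cells (log2 fold change -1.27, SE 0.16, edgeR adjusted p = 0.00022), and Wdr62 and Cep135 are also on this list. Without tatcre replicate 1 or without mock replicate 2 this list had 4 lower and 2 higher calls, and with library size alone or upper-quartile scaling the balance turned, to 4 lower and 8 higher.

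Of 31 spindle pole kinases and organisers 8 were called lower, 5 higher and 18 were not called. Tacc2, a centrosomal coiled-coil gene, fell to 5.21 ± 0.425 CPM in tatcre cells, against 13.6 ± 0.728 CPM in mock cells (log2 fold change -1.38, SE 0.13, edgeR adjusted p = 3.6e-05). The polo-like kinase gene Plk2 rose to 22.3 ± 2.43 CPM in tatcre cells, against 12.3 ± 0.893 CPM in mock cells (edgeR adjusted p = 0.00045), and the mitotic kinase gene Nek7 had 262 ± 4.31 CPM in tatcre and 196 ± 10.2 CPM in mock cells (edgeR adjusted p = 0.0017). Aurka, the Aurora A gene, was called lower at -0.36. The number called lower was 5 without tatcre replicate 1 and 5 without mock replicate 2. The balance turned with another scaling, to 5 lower and 10 higher with library size alone and 5 lower and 8 higher with upper-quartile scaling.

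Of the 4 tested genes for CDK5 and its regulators, for which Cdk5rap2 is named, Cdk5r1, the gene of the p35 activator, was called lower (40.1 ± 1.74 CPM in tatcre and 56.0 ± 1.44 CPM in mock cells, edgeR adjusted p = 0.0014). Cdk5 was called higher (17.3 ± 1.59 CPM in tatcre and 12.8 ± 1.14 CPM in mock cells, edgeR adjusted p = 0.021), a call lost without mock replicate 1 or 3 or tatcre replicate 1 or 3, and with the replicate block. Of 10 genes that respond to centrosome errors, 2 were called lower, 1 higher and 7 were not called. Cradd, a PIDDosome gene, had 11.2 ± 1.54 CPM in tatcre and 15.9 ± 0.638 CPM in mock cells (edgeR adjusted p = 0.014). Trp53bp1, the 53BP1 gene, was called lower at -0.29 (edgeR adjusted p = 0.025; lost without mock replicate 3 or tatcre replicate 1, with upper-quartile scaling, with library size alone and with the replicate block). Pidd1 was called higher at 0.32 (edgeR adjusted p = 0.046; lost in every setting that left out 1 library other than tatcre replicate 2, with DESeq2, with the replicate block and with no low-count filter). With library size alone this list had 1 lower and 3 higher calls, and with upper-quartile scaling 1 lower and 2 higher. Usp28, which acts with 53BP1 when centrosomes are lost, and Trp53 were not called (edgeR adjusted p = 0.79 and 0.42).

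Plk4 and Aspm are made mainly in dividing cells, so 20 proliferation genes are set beside them. Of these 5 were called lower, 2 higher and 13 were not called. Mcm5, a replication helicase gene, fell to 179 ± 17.8 CPM in tatcre cells, against 357 ± 27.1 CPM in mock cells (edgeR adjusted p = 3.4e-05), and Birc5, the survivin gene, fell to 168 ± 1.13 CPM in tatcre cells, against 245 ± 8.43 CPM in mock cells (edgeR adjusted p = 0.00029). Cenpf, a kinetochore gene, rose to 280 ± 19.3 CPM in tatcre cells, against 213 ± 8.23 CPM in mock cells (edgeR adjusted p = 0.0037), and Mki67 and Top2a were not called (edgeR adjusted p = 0.19 and 0.35). The part of a changed share of dividing cells in the differences of Plk4 and Aspm was not tested. The number called lower was 3 without tatcre replicate 1 and 3 without mock replicate 2, and the number called higher was 1 without tatcre replicate 1 and 4 without tatcre replicate 2. With library size alone 3 were lower and 7 higher, and with upper-quartile scaling 4 were lower and 5 higher.

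**Figure D5:**
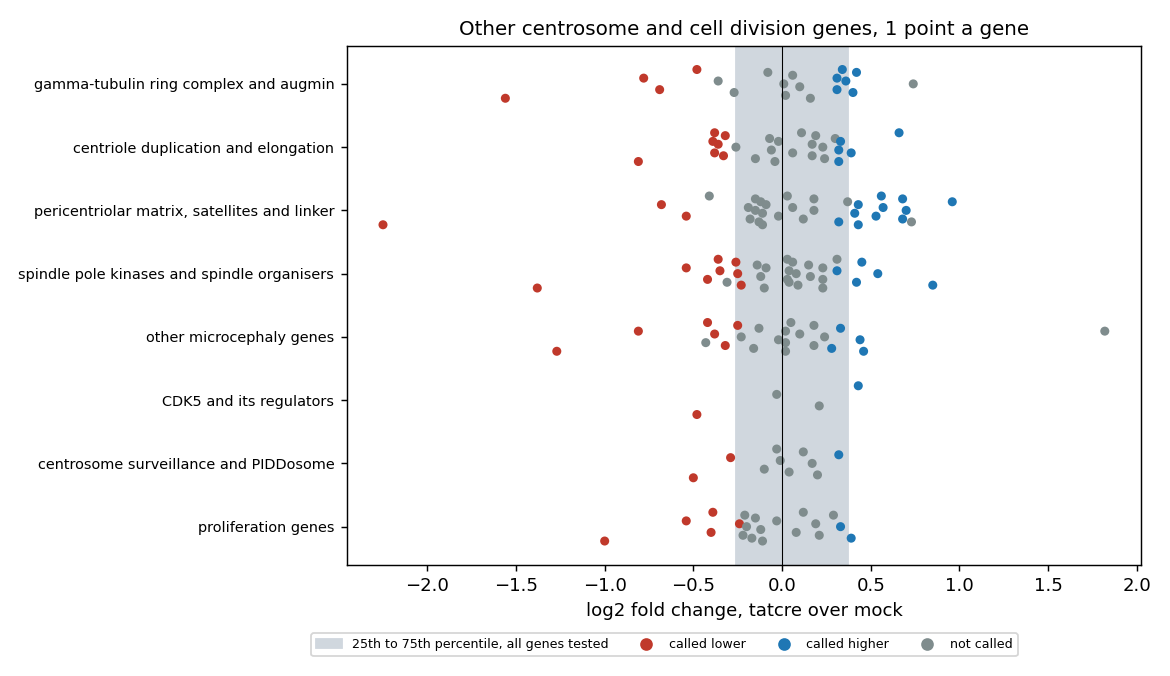
Log2 fold change of tatcre over mock for each tested gene of 8 lists (1 point a gene; a gene may be on 2 lists), with the 25th to 75th percentile of all genes tested as a grey band; red is called lower, blue called higher and grey not called. Each list has calls in both directions, and the lowest points are Bbs4 (-2.25), Haus7 (-1.56), Tacc2 (-1.38) and Lmnb2 (-1.27).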

How the data were processed

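The authors deposited 1 file of raw counts per RNA library, with Ensembl gene IDs. The submitters' processing notes name, without order or role, mm10 as build and the tools HTSeq, MACS2, SAMtools, TopHat2 and Trimmomatic. The sources used here give no versions, annotation or strand setting. The labels' protocols name a stranded RNA kit. Of 48795 gene IDs 48349 matched a symbol; gene positions and promoter windows are from RefSeq on GRCm38.p6, the assembly that mm10 stands for.

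Genes were kept with filterByExpr (minimum count 10, minimum total 15), libraries scaled by TMM, and the tatcre over mock difference tested on all 15546 genes with the quasi-likelihood method of edgeR 4.0.16 in R 4.3.3, with no replicate block. SE is the log2 fold change divided by the root of its F value. The biological coefficient of variation was 0.129. A count of 0 allows up to 3 counts, 0.111 to 0.128 CPM. The script was checked on simulated data. Replicates differed beyond sampling noise (smallest chi-square per degree of freedom 7.5). DESeq2 1.42.0 was an alternative, among 12 settings.

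The 10 genes and all lists were chosen with earlier results of these data known. Named from each wider list were the 3 called genes of lowest adjusted p; further genes were named after their values were seen. Levels are not compared between genes, since transcript lengths were not used here. Alignment of CDK5RAP2 and myomegalin was planned, but protein sequences were not used here.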

Additional observations from a re-analysis of the deposited data

How the results depend on the processing

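Cdk5rap2, Akap9, Plk4 and Pcnt were called lower in all 12 other settings tried, and no log2 fold change of the 10 genes changed sign. Cdk5rap2 ranged from -5.01 to -4.59, Akap9 from -1.27 to -1.11, Plk4 from -0.65 to -0.45 and Pcnt from -0.37 to -0.23. The call of Aspm was lost in 8 settings, and 4 or 5 of the 10 genes were called in each. All genes called higher numbered 1679 as reported, 2614 with library size alone, and 998 to 1681 with 1 library left out, lowest without mock replicate 2 and without tatcre replicate 1 (1002). Falls made up 60.2% of calls as reported, 48.5% with upper-quartile factors and 42.0% with library size alone, which shifts the median over all genes to 0.129 on the log2 scale, against 0.024; the 4 falls are larger than this shift. With 1 library left out, 41 to 62 of the wider centrosome genes were called, against 67 as reported; with library size alone 20 were lower and 53 higher. The cause was not tested.

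Equal replicate numbers did not mark samples that deviate together (correlations of deviations 0.102, -0.128 and 0.126). With a replicate block 3421 genes were called, against 4215, and 4 of the 10 genes, without Aspm; of the wider genes 46 were called, 20 of them lower. The longer motif was found in the promoter of 1 of the 9 genes with a promoter window, against 3 with the 8-letter motif. The peak comparison and the protein alignment were not run. Counts of 41 to 67 limit how well the residual Cdk5rap2 level is known.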

Other observations

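Promoter windows with at least 3 matches to the 8-letter YY1 motif belonged to 8 genes, and 5 of these were called lower in tatcre cells. Over all 15546 tested genes 16.3% were called lower. Only tested genes with a promoter window enter the shares by match, so these have another base. Of 8988 such genes without a match 17.3% were called lower and 12.2% higher. Of 1019 with at least 1 match 31.1% were called lower and 11.8% higher. The 72 with at least 2 matches are part of the 1019, and 34.7% of them were called lower and 5.56% higher. The 8 genes include Cdk5rap2, which was chosen by its fall. Cdk5rap2, with 4 matches, kept 3.79% of its mock level. The others called lower had 3 matches each. Thap2, a zinc finger gene, had 10.2 ± 2.05 CPM in tatcre and 20.5 ± 2.02 CPM in mock cells, and Bscl2, the seipin gene, had 9.85 ± 1.34 CPM in tatcre and 21.1 ± 3.81 CPM in mock cells (SD, n = 3 each). Psmb5 and Mrpl47 kept 62.4% and 81.3% of their mock level. Exosc2, Slx4ip and 1600020E01Rik were not called, with log2 fold changes of -0.10, 0.08 and 0.10. Neither the number of matches nor its link to the size of the fall was tested, and the list was drawn up after the Cdk5rap2 window had been seen.

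Among 241 tested genes whose window holds the longer motif, which Cdk5rap2 has once, 28.2% were called lower and 13.7% higher, with a median log2 fold change of -0.08.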
